A study of Sus scrofa with 12 samples.

Results

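The genes that store, release and recapture calcium in the sarcoplasmic reticulum of muscle fibres were chosen by name. The set was RYR1, CACNA1S, ATP2A1, ATP2A2, CASQ1, CASQ2, SLN, PLN, TRDN and STAC3, and a gene entered when a row of the gene count tables carried its symbol. Of these 10 symbols, 6 had a row, out of 25880 genes in all: CACNA1S (ENSSSCG00000024784), ATP2A1 (ENSSSCG00000007805), ATP2A2 (ENSSSCG00000034386), CASQ1 (ENSSSCG00000006390), SLN (ENSSSCG00000029651) and TRDN (ENSSSCG00000027613). RYR1, CASQ2, PLN and STAC3 had no row with their symbol and were not analysed here. The libraries came from the longissimus dorsi, the long back muscle, of 12 Iberian pigs, all castrated males of a single closed commercial population. The pigs were fattened outdoors in a free-range system, and no treatment or engineered allele was involved. The High MB group (6 pigs) and the Low MB group (6 pigs) had been selected for opposite breeding values for muscle myoglobin, the oxygen-binding pigment that gives meat its red colour, and muscle myoglobin ran from 2.376 to 2.559 mg/g in High MB pigs and from 1.226 to 1.58 mg/g in Low MB pigs. Each pig gave 1 library, so the groups differ in breeding value and not in an applied treatment.

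A muscle fibre contracts when a nerve impulse spreads along its surface into the transverse tubules. There the voltage sensor, whose pore subunit is CACNA1S, opens the release channel of the sarcoplasmic reticulum, and triadin (TRDN) holds that channel close to calsequestrin (CASQ1), the protein that stores calcium inside the reticulum. Relaxation follows when calcium pumps return the ion to the reticulum. ATP2A1 encodes SERCA1, the pump of fast fibres, ATP2A2 encodes SERCA2, the pump of slow fibres and of the heart, and sarcolipin (SLN) is a small membrane peptide that binds the pumps and lowers the calcium moved per ATP. Slow fibres are rich in myoglobin and mitochondria, whereas fast glycolytic fibres hold less of both. The comparison therefore asked whether the calcium machinery differed between pigs with high and with low breeding values for the pigment.

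The groups differed in the balance of the calcium pumps, in a comparison chosen with earlier results of these data known. ATP2A2 made up 12.5% ± 1.87 (SD, n = 6) of the counts of ATP2A1 and ATP2A2 together in High MB pigs and 7.40% ± 2.51 (SD, n = 6) in Low MB pigs. None of the 6 genes was called by itself at an edgeR adjusted p-value under 0.10. Neither was any other of the 13373 genes tested, where the smallest adjusted p-value was 0.563.

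The pumps lie on different chromosomes and their upstream sequences are unlike in composition. In the RefSeq annotation of Sscrofa11.1, ATP2A1 lies on the plus strand at chr3:18545064-18568312 and ATP2A2 on the plus strand at chr14:31674659-31744981. The 250 bases before each gene start are shown for both pumps, whose ratio differed between the groups, and for TRDN (plus strand, chr1:39180544-39567245), which held a motif that few genes share. The windows are chr3:18544814-18545063, chr14:31674409-31674658 and chr1:39180294-39180543, 5′ to 3′, and hold no annotated exon. Capitals mark matches to CANNTG, the E-box bound by myogenic factors such as MYOD1, and to the CArG box, the motif of serum response factor, searched on both strands, and no match overlapped another.
ATP2A1: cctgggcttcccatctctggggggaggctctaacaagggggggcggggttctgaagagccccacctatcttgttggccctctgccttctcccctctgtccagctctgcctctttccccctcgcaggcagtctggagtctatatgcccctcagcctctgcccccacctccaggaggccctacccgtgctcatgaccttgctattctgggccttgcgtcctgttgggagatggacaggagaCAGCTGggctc
ATP2A2: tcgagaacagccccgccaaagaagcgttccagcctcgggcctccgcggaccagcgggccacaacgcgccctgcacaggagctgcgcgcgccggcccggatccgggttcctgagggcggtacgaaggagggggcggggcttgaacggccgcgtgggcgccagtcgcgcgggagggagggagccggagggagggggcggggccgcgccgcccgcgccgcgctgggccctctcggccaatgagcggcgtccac
TRDN: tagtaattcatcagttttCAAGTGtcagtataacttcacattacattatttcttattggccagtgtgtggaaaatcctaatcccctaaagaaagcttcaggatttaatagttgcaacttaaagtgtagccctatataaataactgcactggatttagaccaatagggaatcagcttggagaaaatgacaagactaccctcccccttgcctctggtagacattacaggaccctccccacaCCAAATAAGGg
The ATP2A1 window had 62.8% G and C and 1 E-box, the ATP2A2 window 77.2% and 0 E-boxes, and the TRDN window 39.6%, 1 E-box and 1 CArG box at its very end. Over the 20651 windows of the annotation the median was 57.2%, with an E-box in 62.3% of windows, a CArG box in 1.27% and a MEF2 site in 2.70%. The windows of CACNA1S (chr10:23567798-23568047, minus strand), CASQ1 (chr4:90288991-90289240, minus strand) and SLN (chr9:36242406-36242655, minus strand) had 1, 1 and 3 E-boxes, and MEF2 sites were found in 0 of the 6 windows. A match is a string of letters and was not tested for binding.

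The tissue carried its own markers at high levels. Of 6 skeletal muscle markers 4 had a row, and ACTA1, the actin of skeletal muscle, averaged 44113 CPM (gene counts scaled to a common library size with the TMM factors of edgeR). Counts summed over genes ran from 38914271 to 91318334 per pig. Deep libraries, those over 50000000 gene counts, came from Low MB pigs 1, 5 and 6 and from High MB pigs 4 and 6, and the other 7 are called standard. High MB pig 2 stood apart from the other pigs. Its summed skeletal muscle markers were at 37474 CPM, where the group medians were 75939 and 75025, and its macrophage markers were the highest of all pigs.

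All 6 genes were among the most abundant of the 13373 tested. By mean CPM, ATP2A1 ranked 18, SLN 51, CASQ1 63, ATP2A2 112, CACNA1S 191 and TRDN 258. Divided by the length of the longest RefSeq mRNA, the mean level over the 12 pigs was 2414 CPM per kb for SLN, 2120 for ATP2A1, 760 for CASQ1, 218 for ATP2A2, 93.7 for CACNA1S and 75.4 for TRDN. With the shortest mRNA in its place, ATP2A1 stood at 2587 and SLN at 2414 CPM per kb, and TRDN at 158 and CACNA1S at 93.7, so the order within each of these pairs depends on the transcript taken. The counts were made on Ensembl genes, and these lengths are those of RefSeq. Over the 12 pigs, ATP2A2 varied most, with 5.21-fold between its lowest and highest pig, and SLN least, with 1.93-fold.

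**Figure D1:**
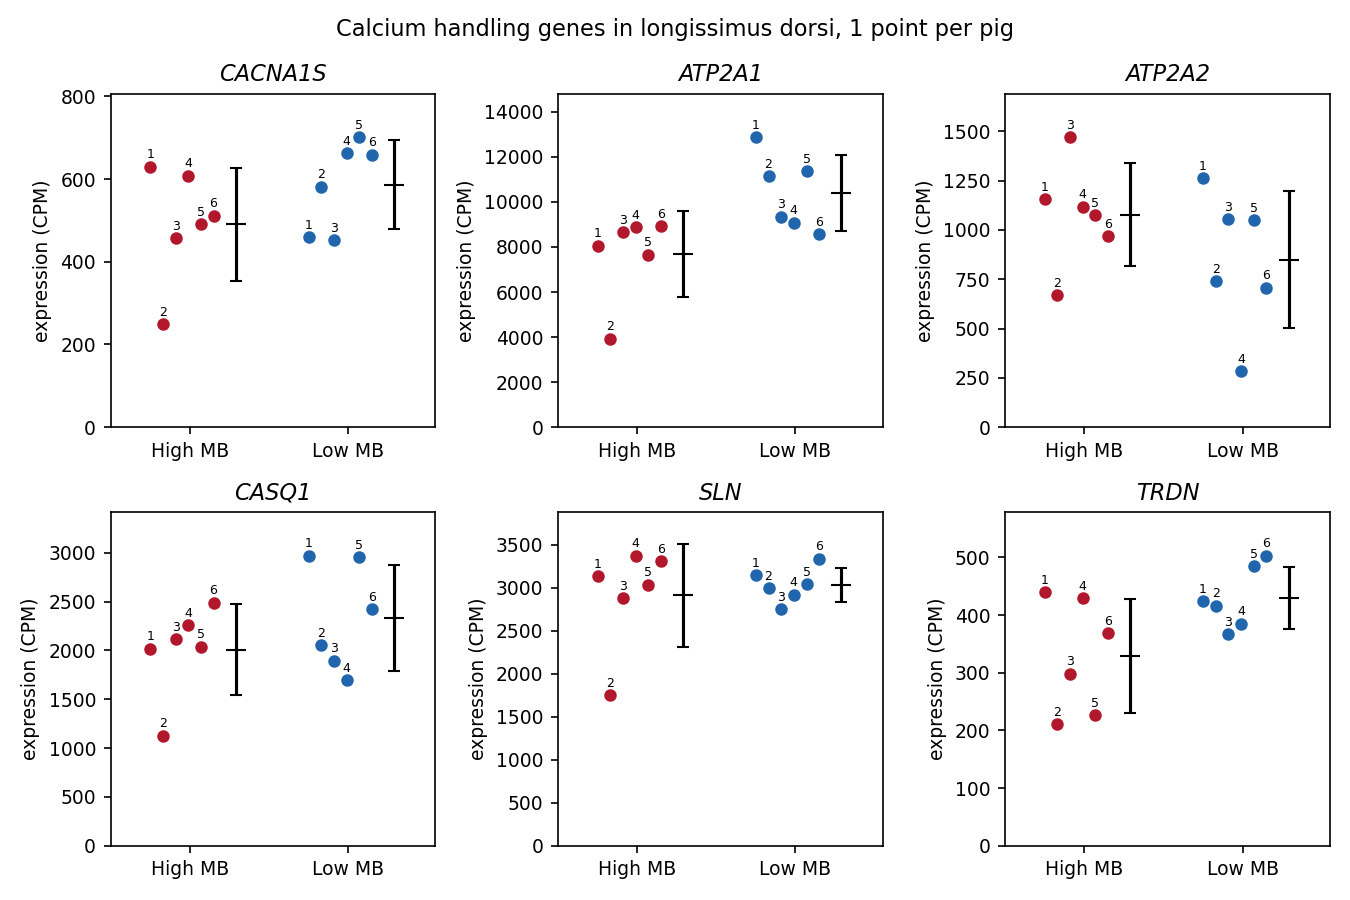
Expression in CPM (vertical axes, linear from 0) of the 6 calcium handling genes in each pig of the High MB group (red) and the Low MB group (blue). Numbers are individual numbers and bars the mean ± SD of 6 pigs. High MB pig 2 was the lowest pig for 5 of the genes, and Low MB pig 4 the lowest for ATP2A2, at 282.7 CPM.

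ATP2A1, the fast pump, ran from 3925 to 8926 CPM in High MB pigs, with a median of 8352, and from 8563 to 12882 CPM in Low MB pigs, with a median of 10240. Of the Low MB pigs, 5 were above every High MB pig, and Low MB pig 6 was the exception. The High MB mean was 7680 ± 1905 CPM (SD, n = 6) against 10396 ± 1666 CPM (SD, n = 6), and the log2 fold change (High MB minus Low MB) in edgeR was -0.44 with a standard error of 0.20, an unadjusted p-value of 0.0440 and an adjusted p-value of 0.578. A two-sided exact permutation test of log2 CPM gave p = 0.0108. The lowest value belonged to High MB pig 2, and without that pig the log2 fold change was -0.28 with an unadjusted edgeR p-value of 0.0546.

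ATP2A2, the slow pump, did not differ beyond the spread between pigs. Its levels were between 668.6 and 1471 CPM (median 1097) in High MB pigs and between 282.7 and 1264 CPM (median 895.5) in Low MB pigs, and the groups overlapped widely. Mean levels were 1077 ± 261.5 CPM (SD, n = 6) and 849.7 ± 348.1 CPM (SD, n = 6). The log2 fold change was 0.34 with a standard error of 0.28 (edgeR adjusted p = 0.757, unadjusted 0.249). Without Low MB pig 4 it was 0.18, in deep libraries alone 0.09 and in standard ones alone 0.67.

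Set against each other within a library, the slow pump took a larger share in High MB pigs. This ratio does not depend on library size. Its test was chosen with earlier results of these data known, and its p-value was not adjusted over other tests. The share of ATP2A2 in the counts of both pumps was 9.80 to 14.6% in High MB pigs (median 12.4%) and 3.02 to 10.1% in Low MB pigs (median 8.04%). Of the High MB pigs, 5 exceeded every Low MB pig, and High MB pig 6 lay below Low MB pig 3 alone. The lowest share, 3.02% in Low MB pig 4, had a 95% Wilson interval of 2.96 to 3.08%, which covers counting error only. The mean log2 ratio of ATP2A2 to ATP2A1 was -2.82 ± 0.25 (SD, n = 6) and -3.74 ± 0.67 (SD, n = 6), a difference of 0.92, or 1.89-fold, with p = 0.00433 in the two-sided exact permutation test, for which 6 pigs against 6 can reach 0.00216.

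The difference in the ratio kept its direction in each subset of libraries examined. In deep libraries alone it was 0.37 (2 pigs against 3, exact permutation p = 0.2) and in standard libraries alone 1.34 (4 against 3, p = 0.0571), and in each case the groups were fully apart and the p-value was the smallest that the numbers allow. Leaving out each pig in turn gave 0.67 to 1.04 with exact permutation p-values of at most 0.00866, the lowest value without Low MB pig 4. Without High MB pig 2 and Low MB pig 4 together it was 0.61, with an exact permutation p-value of 0.0159. The SERCA1 and SERCA2 genes each overlap a neighbour on the opposite strand at the 3′ end, RABEP2 and ANAPC7, and the strand setting of the counting is not given in the sources used here, so reads in those overlaps are uncertain.

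**Figure D2:**
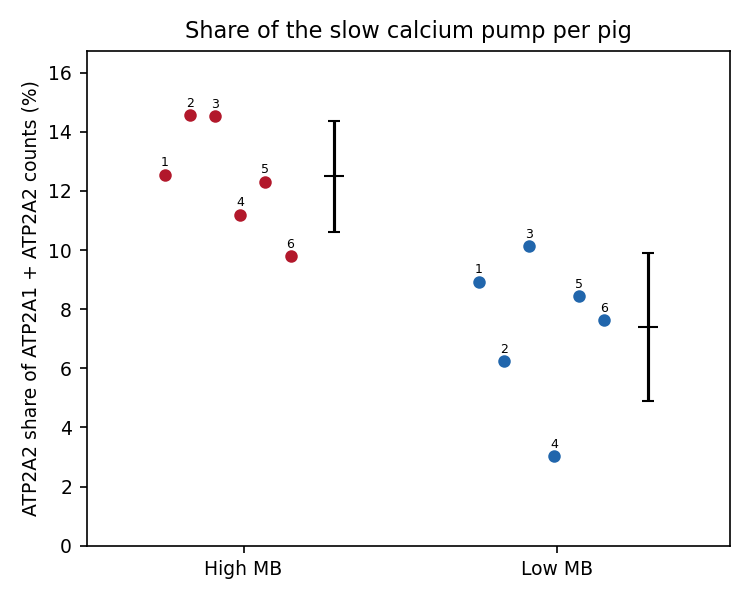
Share of ATP2A2 in the summed counts of ATP2A1 and ATP2A2 (%, linear axis from 0) in each pig, with the mean ± SD of 6 pigs per group. The High MB pigs sit between 9.80 and 14.6%, and 5 of them are above all Low MB pigs.

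Sarcolipin showed no difference between the groups beyond the spread between pigs. SLN (chr9:36232955-36242405) ran from 1749 to 3373 CPM (median 3086) in High MB pigs and from 2747 to 3336 CPM (median 3017) in Low MB pigs. Apart from High MB pig 2, all pigs lay between 2747 and 3373 CPM. The log2 fold change was -0.06 with a standard error of 0.15 (edgeR adjusted p = 0.940), and its sign turned without High MB pig 2, to 0.08, and with upper-quartile size factors, to 0.00034.

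Calsequestrin and triadin, the storage protein and its link to the release channel, were both lower on average in High MB pigs. For CASQ1 this difference was not beyond the spread between pigs. CASQ1 (chr4:90276752-90288990) ran from 1129 to 2491 CPM (median 2076) in High MB pigs and from 1696 to 2973 CPM (median 2239) in Low MB pigs, with Low MB pigs 1 and 5 above all others. Its log2 fold change was -0.22 with a standard error of 0.20 (edgeR adjusted p = 0.777), and -0.07 without High MB pig 2. TRDN ran from 211.3 to 439.3 CPM (median 333.4) in High MB pigs and from 367 to 503.3 CPM (median 420.5) in Low MB pigs. High MB pigs 2, 3 and 5 were below every Low MB pig, and Low MB pigs 5 and 6 above every High MB pig. For TRDN the log2 fold change was -0.39 with a standard error of 0.18, an unadjusted p-value of 0.0531, an adjusted p-value of 0.587 in edgeR and p = 0.0671 in the exact permutation test. In deep libraries alone it was -0.20 (unadjusted edgeR p-value 0.267), and with each pig left out the unadjusted p-value ran from 0.0198 (without High MB pig 1) to 0.129 (without High MB pig 2).

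CACNA1S (chr10:23503701-23567797), the voltage sensor, showed no difference beyond the spread between pigs. It ran from 249.3 to 630.1 CPM (median 501.1) in High MB pigs and from 452.9 to 701.8 CPM (median 620.5) in Low MB pigs. Low MB pigs 4, 5 and 6 exceeded every High MB pig, while Low MB pigs 1 and 3 were among the lowest. The log2 fold change was -0.26 with a standard error of 0.20 (edgeR adjusted p = 0.740), and -0.10 without High MB pig 2.

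Counted together, 0 of the 6 genes were called at the limits of the study, an adjusted p-value below 0.10 with an absolute log2 fold change above 0.58, where edgeR called 0% of all genes tested. DESeq2 with its default settings called 29 genes, and 0 of them belonged to the set. At an unadjusted edgeR p-value under 0.05 there was 1 of 6, ATP2A1, against 8.46% of all genes (1132 of 13373). With High MB pig 1, 2 or 5 or any of Low MB pigs 1, 2, 3, 4 and 5 left out, its unadjusted edgeR p-value was above 0.05, at most 0.0988. The median log2 fold change of the 6 genes was -0.24, with 5 negative and 1 positive (4 and 2 with upper-quartile factors), and that of all genes tested was -0.02, with 53.1% negative.

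Slow-fibre markers were examined beside the pumps, since the pump isoforms belong to different fibre types. Of 7 slow sarcomere markers 5 had a row (TNNC1, TNNI1, TNNT1, MYL2 and MYL3, troponin and myosin light chain genes), and all 5 were higher on average in High MB pigs, with log2 fold changes of 0.51 to 0.58, unadjusted p-values under 0.05 and edgeR adjusted p-values of 0.563 to 0.570. Their summed level ran from 5764 to 11083 CPM in High MB pigs and from 4100 to 7354 CPM in Low MB pigs. Of all genes tested, 46.9% had a positive log2 fold change and 8.46% an unadjusted p-value under 0.05. Of 8 fast markers 4 had a row under the symbol listed, TNNC2, TNNI2, TNNT3 and ACTN3, with log2 fold changes of -0.35 to -0.03 and 0 of 4 under an unadjusted p-value of 0.05. The listed MYLPF had its row under the newer symbol MYL11, with a log2 fold change of -0.16 (edgeR adjusted p = 0.850), and is not part of the fast-marker mean used below unless stated. In bulk muscle, a different share of slow fibres and a different level per fibre cannot be told apart.

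Over all 12 pigs, ATP2A2 had a larger r with the slow markers than the other 5 genes had, a difference that was not tested and did not hold within the Low MB group. Its log2 CPM correlated with the mean log2 CPM of the slow markers at Pearson's r = 0.62 (n = 12 pigs, permutation p = 0.0308, 0.185 after adjustment over the 6 genes) and Spearman's rho = 0.59 (permutation p = 0.0464). The adjusted value does not pass 0.05. Without the 2 pigs farthest from the median marker level r was 0.57, within the 7 standard libraries 0.68, within High MB pigs 0.84 and within Low MB pigs 0.44. For the other 5 genes r over all pigs lay between -0.41 (TRDN) and 0.09 (CASQ1). Within the High MB and Low MB groups, CASQ1 gave 0.44 and 0.47 and ATP2A1 0.53 and 0.33, so for ATP2A1 both values within a group were positive beside a pooled r of -0.14. The log2 ratio of ATP2A2 to ATP2A1 gave r = 0.66 with the slow markers (permutation p = 0.0194, 0.0310 after adjustment over 8 relations added after the values had been seen) and rho = 0.67 (permutation p = 0.0202), with 0.56 without the 2 farthest pigs, 0.68 in the standard libraries, 0.28 within High MB pigs and 0.39 within Low MB pigs. Both values within a group were lower than the pooled one.

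CASQ1 tracked the fast markers instead. Its r with their mean log2 CPM was 0.96 (n = 12, permutation p = 2e-05, 0.00016 after adjustment over the same 8 relations) and rho 0.94 (permutation p = 3e-05). Leaving out the 2 pigs farthest from the median left 0.91, the standard libraries alone gave 0.97, and the High MB and Low MB groups gave 0.99 and 0.99. SLN and ATP2A1 gave r = 0.90 and 0.88, which fell by more when the 2 farthest pigs were left out, to 0.70 and 0.45. TRDN and CACNA1S gave 0.70 and 0.73, and 0.30 and -0.20 without those pigs, so these relations rest on them. ATP2A2 gave 0.36 with a permutation p-value of 0.196, but 0.66 within the High MB group and 0.69 within the Low MB group, the latter above its 0.44 with the slow markers. The log2 ratio of ATP2A2 to ATP2A1 gave r = -0.22 with the fast markers (permutation p = 0.432, also after adjustment) and rho = -0.36 (permutation p = 0.248), with opposite signs within the groups, -0.77 among High MB pigs and 0.57 among Low MB pigs. With MYL11 added to the fast markers after the data had been seen, CASQ1 gave r = 0.97, SLN 0.89, ATP2A1 0.87, CACNA1S 0.71, TRDN 0.70 and ATP2A2 0.37.

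**Figure D3:**
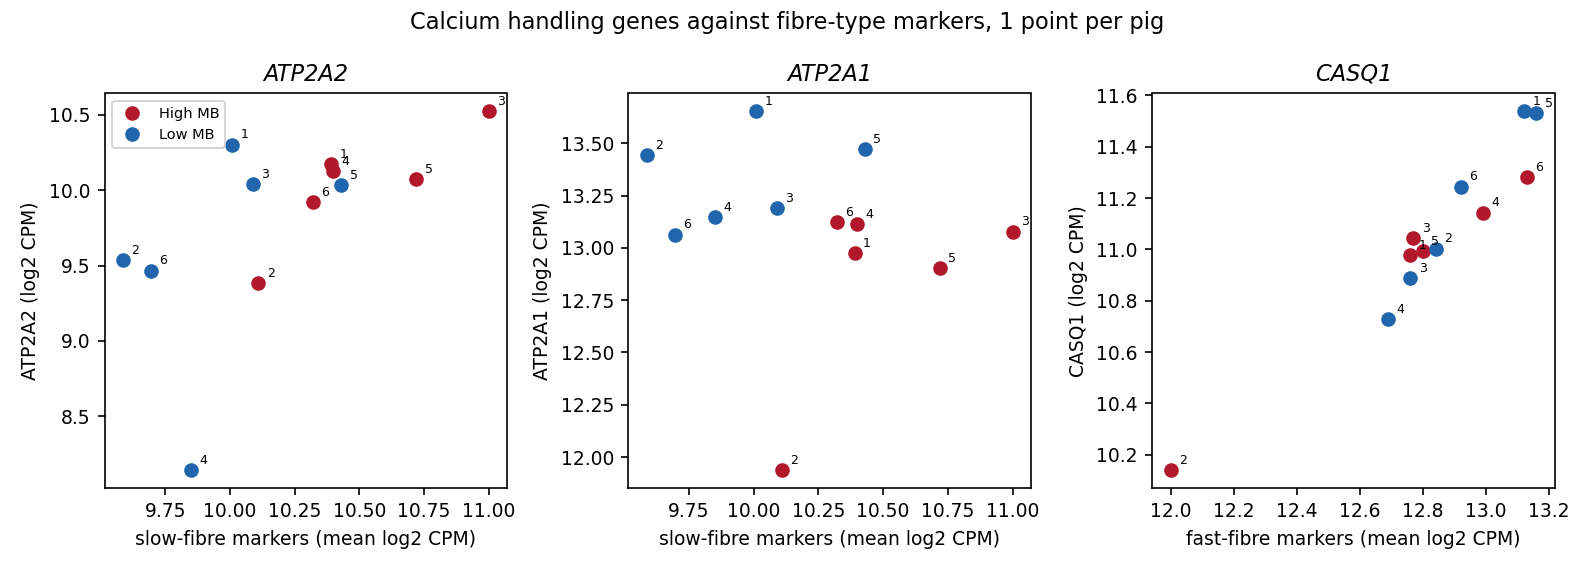
Log2 CPM of ATP2A2 and ATP2A1 against the mean log2 CPM of 5 slow-fibre markers, and of CASQ1 against that of 4 fast-fibre markers, 1 point per pig with its individual number (High MB red, Low MB blue). CASQ1 lies along a line with the fast markers (r = 0.96), ATP2A2 rises loosely with the slow markers (r = 0.62), and ATP2A1 has a pooled r of -0.14 with them, with positive values within each group (0.53 and 0.33).

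Among themselves, the genes were compared in pairs across the 12 pigs. Of the 15 pairs, the strongest were ATP2A1 with CASQ1 (r = 0.85, permutation p = 0.0024, adjusted over 15 pairs 0.018, rho = 0.51 with p = 0.0932), CACNA1S with SLN (r = 0.84, p = 0.0112, adjusted 0.0305, rho = 0.52 with p = 0.0896) and CASQ1 with SLN (r = 0.83, p = 0.00512, adjusted 0.0211, rho = 0.71 with p = 0.013). Without the 2 farthest pigs these fell to 0.37, 0.44 and 0.52. CACNA1S with TRDN was at r = 0.79 (permutation p = 0.00141, adjusted 0.018, rho = 0.78 with p = 0.00394) and 0.57 without the 2 farthest. The 5 pairs with ATP2A2 had r between -0.11 and 0.46, and 0.21 with ATP2A1. Without the 2 farthest pigs they ran from -0.64 (CACNA1S) to 0.04 (CASQ1), with ATP2A1 at -0.15.

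The genes nearest in pattern were searched among 11354 genes with a symbol, by Pearson's r of log2 CPM over the 12 pigs, as a description with no test. For ATP2A2 they were GGCT (0.93), CTNNBIP1 (0.92) and ALDH5A1 (0.89). For CASQ1 they were MYL11 (0.97), the regulatory light chain of fast myosin, NFIX (0.97) and HOXC10 (0.97). ATP2A1 was nearest to RABEP2 (0.99), the gene whose 3′ end overlaps its own, PLCL2 (0.96) and CACNG1 (0.95), a subunit of the voltage sensor. For SLN they were ATL2 (0.97), CAP2 (0.96) and FKBP8 (0.94), for CACNA1S SLC7A2 (0.90), NR1D2 (0.90) and TAGLN3 (0.89), and for TRDN SAMTOR (0.92), CBFA2T2 (0.91) and ECPAS (0.91). High MB pig 2 was the lowest pig for 14 of these 18 genes, and Low MB pig 4 for the 3 nearest to ATP2A2.

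Within a group, none of the 6 genes was related to the myoglobin content of the muscle at the precision of 6 pigs. The groups form separate clusters of myoglobin content, so no pooled value was computed. Of 12 relations the closest were those of TRDN (r = -0.75, exact permutation p = 0.101, rho = -0.66 with p = 0.175) and SLN (r = -0.71, exact permutation p = 0.107, rho = -0.60 with p = 0.242) in Low MB pigs, both at 0.642 after adjustment over the 12. Without the 2 farthest pigs r was -0.96 and -0.86 on 4 pigs. In the High MB group the same genes gave -0.08 and 0.05.

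Around these genes lies the rest of the calcium machinery, for which 64 other genes were listed by role and 59 had a row and were tested. As with the reticulum genes, 0 were called, where edgeR called 0% of all genes tested. At an unadjusted p-value under 0.05 there were 7 (11.9%, beside 8.46% of all genes), 2 with higher and 5 with lower means in High MB pigs. Of the 59, 42 (71.2%) had a negative log2 fold change and 17 a positive one, with a median of -0.09, where 53.1% of all genes tested (7103 of 13373) were negative. With upper-quartile size factors these shares were 59.3% (35 of 59) and 42.8%, so counts of signs depend on the scaling, and no test was made of them. Several signs also turned in mean CPM without High MB pig 2, and the counts were not made again without it. The genes named are those 7, the most abundant of each role, and the pair with the largest log2 fold changes, NFATC4 and RYR3.

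At the voltage sensor and release channel, S100A1, a calcium-binding protein that acts on the release channel, had 23.5 to 57.7 CPM in High MB pigs and 24.6 to 31.1 CPM in Low MB pigs. Its log2 fold change was 0.49 (edgeR, unadjusted p = 0.0195, adjusted p = 0.563). High MB pigs 1, 3, 4 and 5 exceeded each Low MB pig. CACNA2D1, an accessory subunit of the voltage sensor, went the same way as CACNA1S, at 296.1 ± 46.3 CPM (SD, n = 6) in High MB pigs and 360 ± 42.3 CPM (SD, n = 6) in Low MB pigs (log2 fold change -0.28, unadjusted p = 0.0458 in edgeR). CACNB1 and CACNG1, further subunits, had -0.06 and -0.31. RYR3, a minor release channel, was at 0.951 ± 0.386 and 1.49 ± 0.685 CPM (SD, n = 6 each), with a log2 fold change of -0.64 and an unadjusted edgeR p-value of 0.0679.

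Of 9 tested genes of the triad and junctional membrane, 1 was under an unadjusted p-value of 0.05, HOMER1. The log2 fold changes of all 9 were negative, from -0.36 to -0.06, with TMM, RLE and upper-quartile factors alike, beside 53.1%, 51.5% and 42.8% of all genes. Some of these signs depend on High MB pig 2, the lowest pig for SYPL2 (72.4 CPM) and BIN1 (1088 CPM). In mean CPM without that pig the signs of SYPL2 and BIN1 turned, while HOMER1 and JPH1 kept theirs. HOMER1 had a log2 fold change of -0.36 (edgeR, unadjusted p = 0.0228, adjusted p = 0.563), encodes a scaffold protein and stood at 172.1 ± 27.6 CPM in High MB pigs and 220.3 ± 38.1 CPM in Low MB pigs (SD, n = 6 each). BIN1, which shapes the transverse tubules, had -0.06, JPH1, which ties the tubule to the reticulum, -0.35, and SYPL2 -0.17. In the lumen, the stores SRL, HRC and CALR had log2 fold changes of -0.12, -0.14 and 0.14. Their adjusted edgeR p-values were at least 0.884. High MB pig 2 was the lowest pig for SRL (546.8 CPM) and HRC (113.2 CPM) and the highest for CALR (173 CPM). In mean CPM without that pig, each of these signs turned.

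Calcium extrusion over the surface membrane held the single named gene whose groups did not overlap. ATP2B1, a plasma membrane calcium pump, ran from 73.9 to 113.6 CPM in High MB pigs and from 115.4 to 141 CPM in Low MB pigs. Every Low MB pig was above every High MB pig, as was the case in one direction or the other for 0.426% of all genes tested (57 genes). The log2 fold change was -0.32 with a standard error of 0.12 (unadjusted p = 0.0139, adjusted 0.563 in edgeR). Its relatives ATP2B2 and ATP2B4 had -0.14 and -0.25. ATP2B2 was lowest in High MB pig 2, at 13.95 CPM. In mean CPM without that pig its sign turned, while that of ATP2B4 did not.

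Downstream of calcium, 3 of 13 tested genes (23.1%) of calcineurin, CaM kinase and NFAT were under an unadjusted p-value of 0.05. Of all genes tested, 8.46% were. The log2 fold change was negative for 12 of the 13, beside 53.1% of all genes, and for 10 of them with upper-quartile factors, beside 42.8%. Some of these signs depend on High MB pig 2, as for MYOZ1 below. PPP3R1, the regulatory subunit of calcineurin, had 157.6 to 249.6 CPM in High MB pigs and 230.1 to 352.7 CPM in Low MB pigs, with 5 Low MB pigs above every High MB pig. Its log2 fold change of -0.44 had an unadjusted p-value of 0.00404, the smallest among the 59, and an adjusted one of 0.563 in edgeR. CAMK2D, a calcium-dependent kinase, had -0.43 (unadjusted p = 0.0281) and NFATC4, a transcription factor that calcineurin activates, 0.71 (unadjusted p = 0.0309) at 3.37 ± 1.11 CPM and 2.07 ± 0.86 CPM (SD, n = 6 each). The most abundant genes of this role, MYOZ1, CAMK2A and PPP3CB, had log2 fold changes of -0.10, -0.12 and -0.17. High MB pig 2 was the lowest pig for MYOZ1, at 1917 CPM. In mean CPM without that pig the sign of MYOZ1 turned, while CAMK2A and PPP3CB kept theirs.

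The remaining roles held 0 genes under an unadjusted p-value of 0.05, beside 8.46% of all genes. Of the 7 genes of mitochondrial uptake 6 had positive log2 fold changes, up to 0.28, where 46.9% of all genes were positive, and MCU and SMDT1, among its most abundant genes, had 0.10 and 0.04. Store-operated entry ran from -0.27 to 0.17, with STIM1 at -0.01, ORAI1 at 0.11 and ORAI3 at 0.10. ATP2A3, the third SERCA gene, named after its values were seen, was at 5.31 ± 0.886 CPM in High MB pigs and 3.81 ± 1.28 CPM in Low MB pigs (SD, n = 6 each), with 4 High MB pigs above each Low MB pig and a log2 fold change of 0.48 (unadjusted p = 0.0688, adjusted p = 0.604 in edgeR). The receptors ITPR1, ITPR2 and ITPR3 of the reticulum had 0.17, -0.08 and -0.02, and the calmodulin genes CALM2 and CALM3, which encode the same protein, had 0.16 and -0.09.

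**Figure D4:**
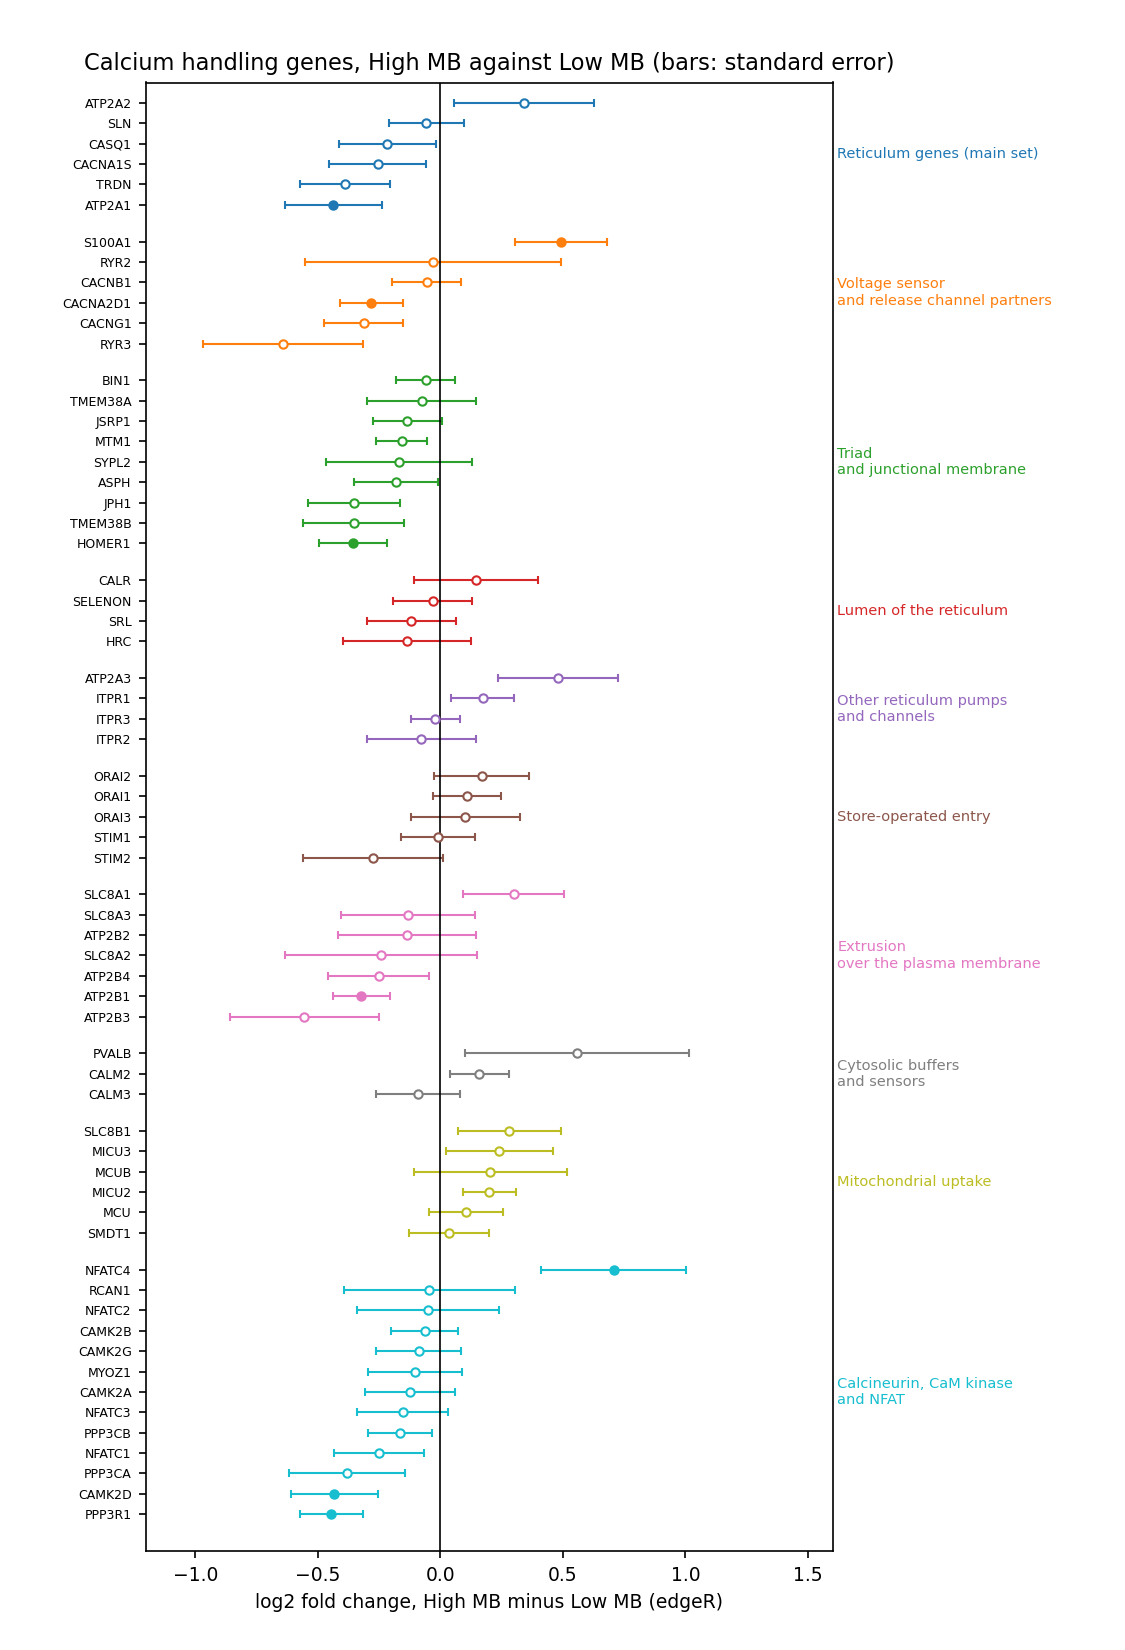
Log2 fold change (High MB minus Low MB, edgeR, horizontal axis) of the 6 reticulum genes and 57 of the 59 other calcium handling genes by role, with bars of 1 standard error and filled points for unadjusted p-values under 0.05. Filled points are ATP2A1 and 7 other genes, and the 9 triad genes lie below 0, as do 53.1% of all genes tested.

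Markers of other cell types also differed on average between the groups, and their part in the pump ratio and in the values above was not tested. Of all genes tested, 46.9% had a positive log2 fold change and 8.46% an unadjusted p-value under 0.05. All 5 macrophage markers had positive log2 fold changes, with 3 under an unadjusted p-value of 0.05. Their summed level was 32.1 to 102.7 CPM in High MB pigs and 19.9 to 41.6 CPM in Low MB pigs, with High MB pig 2 at the top. All 6 fibroblast markers (3 under 0.05) and all 5 adipocyte markers (2 under 0.05) were likewise positive, with sums of 630 to 1118 and 55.3 to 228 CPM in High MB pigs and 326.3 to 828.4 and 35.8 to 198.7 CPM in Low MB pigs. The 4 endothelial and 5 smooth muscle markers with a row had 0 under 0.05. Of the cardiac markers 2 of 4 had a row, with 1 under 0.05. TNNT2, a cardiac troponin gene, averaged 1.38 ± 0.790 CPM in High MB pigs and 0.481 ± 0.256 CPM in Low MB pigs (SD, n = 6 each), with a log2 fold change of 1.5 (unadjusted p = 0.0109, adjusted p = 0.563 in edgeR). MYH6, nearly identical in sequence to the slow myosin gene MYH7, was at 3621 to 8063 CPM over all pigs, so its reads may be shared with MYH7. No marker with a row was at 0 in any pig.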

How the data were processed

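Longissimus dorsi RNA of 12 pigs was sequenced as paired 150 base reads with 1 library per pig. Per the submitters' processing notes and methods, Trim Galore was used for trimming, HISAT2 for alignment on Sscrofa11.1 and htseq-count for counting. The authors deposited whole-number gene counts that had not been normalized. Annotation release and strand setting are not given in the sources used here. Between 50.9 and 52.0% of the reads in the count tables were given no gene, and these lines were left out of library sizes. Counts by transcript were not used. Symbols were matched by Ensembl ID for 14857 of 25880 genes.

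Genes were tested with edgeR 4.0.16 in R 4.3.3 (TMM, filterByExpr with the group, glmQLFit and glmQLFTest, no covariate), with Benjamini-Hochberg adjustment over the 13373 genes tested. DESeq2 1.42.0 was an alternative. Log2 CPM took a prior count of 2 and the pump ratio a pseudocount of 0.5. Single values were compared by exact two-sided permutation over all 924 assignments of the pigs, and correlations over 12 pigs with 100000 permutations. The ratio of CASQ2 to CASQ1 was also planned and could not be computed. Fits were tested on simulated data. The genes, lists and tests were chosen with earlier results of these data known. Named pathway genes were those with an unadjusted p-value under 0.05, the 3 of highest mean CPM in each role and the 2 with the largest absolute log2 fold change. Some genes chosen by this rule are not reported here. Labels do not give litter or slaughter day. Per the paper, full siblings were avoided and the pigs came from the same season. Tests took the pigs as independent, and neither kinship nor slaughter batch was modelled.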

Additional observations from a re-analysis of the deposited data

Results flagged for a closer look

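High MB pig 2 lay far from the other High MB pigs for 3 of the 6 genes, with a gap to the nearest pig that exceeded Dixon's 95% critical value for 6 samples. ATP2A1 was at 3924.5 CPM (Dixon ratio 0.747), CASQ1 at 1128.8 CPM (0.653) and SLN at 1748.7 CPM (0.696). Of 14 groups of values examined, 3 passed that value, and chance alone flags about 1 in 20. The same pig had the lowest summed skeletal muscle and fast-fibre markers (37474 and 16991 CPM) and the highest summed macrophage markers (102.7 CPM). Its share of ATP2A2 among the pump counts, 14.6%, was close to the 14.5% of High MB pig 3. The part of these marker levels in the low values was not tested.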

How the results depend on the processing

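The count of called genes was 0 among the 6 reticulum genes and 0 among the 59 others under all 23 alternatives. Over all genes, the main edgeR fit called 0 of 13373 and DESeq2 called 29 of 14417, so a count of 0 does not set these genes apart. The difference in the log2 ratio of ATP2A2 to ATP2A1 was between 0.67 and 1.04 with each pig left out, and 0.37 in deep and 1.34 in standard libraries alone, where the exact permutation p-values of 0.2 and 0.0571 are the smallest possible. The number of the 6 genes with an unadjusted p-value under 0.05, 1 in the report, was 0 with RLE or upper-quartile size factors, at least 10 counts in every pig, the depth class as a covariate, deep or standard libraries alone, or without the 10 genes of highest counts, 2 with no filter on low counts, and 0 to 2 with each pig left out. Among the 59 other genes that number, 7 in the report, was 0 in deep and 4 in standard libraries alone and 2 to 10 with each pig left out (2 without High MB pig 5, 3 without Low MB pig 4). The log2 fold change of SLN changed sign, to 0.12 in deep libraries alone, 0.070 without High MB pig 2 and Low MB pig 4, 0.00034 with upper-quartile size factors, and between -0.10 and 0.076 (without High MB pig 2) with each pig left out. The cause was not tested.

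Same-numbered pigs did not deviate together (correlations of -0.21 to 0.14 over genes, with 0 of 6 pairs best matched), so the individual numbers name pigs and pair none. With the number as a replicate block, 1 of the 6 genes was under an unadjusted p-value of 0.05, TRDN in place of ATP2A1 (-0.44, p = 0.0421, and -0.47, p = 0.0598, in edgeR), 8 of the 59 were, and the exact permutation of the paired pump ratio gave p = 0.0312, the smallest that 6 pairs allow.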
